A study of Mus musculus with 12 samples.

Results

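The genes described here are 40 genes of DNA replication and repair in mouse liver, of 18193 genes measured. They form a named list, of which 10 license origins, 18 work at the replication fork, 4 make deoxynucleotides, 6 act in repair or checkpoint signalling and 2 maintain DNA methylation. Each gene was read from 1 probe set, the one with the highest mean over all arrays among those annotated to that gene alone, and all 40 were measured. The list does not rest on the measured values, but it was drawn up with earlier results of these arrays known. Counts of called genes are therefore set beside the same counts over all genes, and no count over the list carries a test.

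RNA from liver samples of C57Bl/6 mice aged 3 months was hybridised to Affymetrix GeneChip Mouse 430 2.0 arrays in 3 groups of 4: Atp7b-/- livers with supplemental zinc, Atp7b-/- livers without it, called untreated here, and wild type livers with no agent. Atp7b encodes a copper pump of hepatocytes that moves the metal towards bile, and Wilson disease in humans follows from its loss. The labels name 4 zinc-treated mutant mice and do not say whether every other array came from its own mouse, so p-values measure the spread between arrays, which may be partly technical. Zinc dose, duration, the sex of the mice and the kind of Atp7b allele are given by no source used here.

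Before a cell copies its DNA, the origin recognition complex (Orc proteins), Cdc6 and Cdt1 load the Mcm2 to Mcm7 helicase onto chromatin, a step called licensing. Cdc45 and the Gins proteins then activate the helicase, the polymerases alpha, delta and epsilon copy the strands, Rfc proteins load the sliding clamp Pcna, and Rpa coats single-stranded DNA. Ribonucleotide reductase (Rrm1 with Rrm2), thymidine kinase (Tk1) and thymidylate synthase (Tyms) supply the building blocks. Most cells of an adult liver are resting, and many of these genes are transcribed through E2F factors as cells enter S phase. Several repair genes, such as Brca1 and Exo1, are under the same cell cycle control, yet their proteins also serve DNA breaks and stalled forks.

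Levels are log2 intensities, so a difference of 1 is a doubling, and levels are compared between arrays for the same gene and never between genes. A gene rose or fell where limma's moderated test, adjusted by Benjamini-Hochberg over all genes, gave an adjusted p under 0.05. Each call was repeated in 21 or 22 alternative fits at that threshold, of which 12 left out 1 array each. Atp7b itself read 6.57 to 6.98 in zinc-treated mutants, 6.91 to 7.25 in untreated mutants and 8.51 to 8.69 in wild type livers, so every mutant array was below every wild type array. Of the 40 members, Cdc6, Pole2 and Tyms had group means below the lower quartile of all genes in all groups and are called dim, and Exo1 was dim in zinc-treated and wild type livers. In bulk liver, fewer cells of a type and less RNA per cell cannot be told apart.

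Some arrays stood apart. Untreated Atp7b-/- replicate 1 had a median correlation with its group of 0.991, against 0.996 for each of the other 3, and it was the highest array of its group for 29 of the 40 members. That count was not made over all genes, so it cannot be read as a trait of these members. Zinc-treated replicates 2 and 3 carried pancreatic acinar transcripts, with mean levels of the 8 measured marker genes of 9.95 and 7.36, against 5.86 to 6.23 in the other 10 arrays. The mean 3′ minus 5′ signal of control transcripts, a measure of RNA integrity, was 0.54 to 0.74 in zinc-treated, 0.79 to 0.88 in untreated mutant and 0.62 to 0.78 in wild type livers. Hepatocyte marker means lay between 13.9 and 14.1 in every array. In untreated mutants against wild type 5 of 8 macrophage and 3 of 6 endothelial marker genes fell. Of the 8 hepatocyte markers, Fah rose (0.35) and Hnf4a fell (-0.25) there. In the same comparison 2 of 5 erythroid markers rose (Tfrc by 1.47 and Alas2 by 0.43), as did 1 of 5 cholangiocyte markers (Krt19 by 0.47). The median change was 0.03 over the erythroid list and -0.0004 over the cholangiocyte list. In zinc-treated against untreated mutants 1 of 5 erythroid markers fell (Klf1 by 0.97), as did 1 of 8 hepatocyte markers (Tat by 0.72). There 1 of 6 endothelial markers rose (Clec4g by 0.43), as did 1 of 6 stellate and fibroblast markers (Col3a1 by 0.74). With zinc against wild type, 1 of 6 endothelial and 1 of 5 erythroid markers fell. The part of these shifts in the results below was not tested, and the counts of called genes over the whole list, its roles and its companions are also given without the arrays that stood apart.

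Against wild type, untreated Atp7b-/- livers did not show a common shift of the replication genes: a few members rose far, a few fell, and 26 of 40 did not pass the test. The 10 that rose were Cdt1, Rfc5, Pola1, Pole, Rpa2, Rrm1, Brca1, Fancd2, Exo1 and Msh6, which is 25% of members beside 14.3 percent of all genes. The 4 that fell were Mcm4, Orc6, Rfc4 and Rpa3, 10% of members beside 10.3 percent of all genes. The median change was 0.05 for members and -0.05 for all genes. In 11 members every untreated mutant array lay above every wild type array, beside 14.3 percent of all genes. Without untreated replicate 1, 10 members rose and 5 fell with a median change of -0.03, and without zinc-treated replicates 2 and 3, which share the fit's error, 11 rose and 5 fell. Of all genes, 13.6 percent rose and 8.92 percent fell in the first fit, and 13.9 and 9.62 percent in the second. These shares also hold for the counts by role in those fits.

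**Figure D1:**
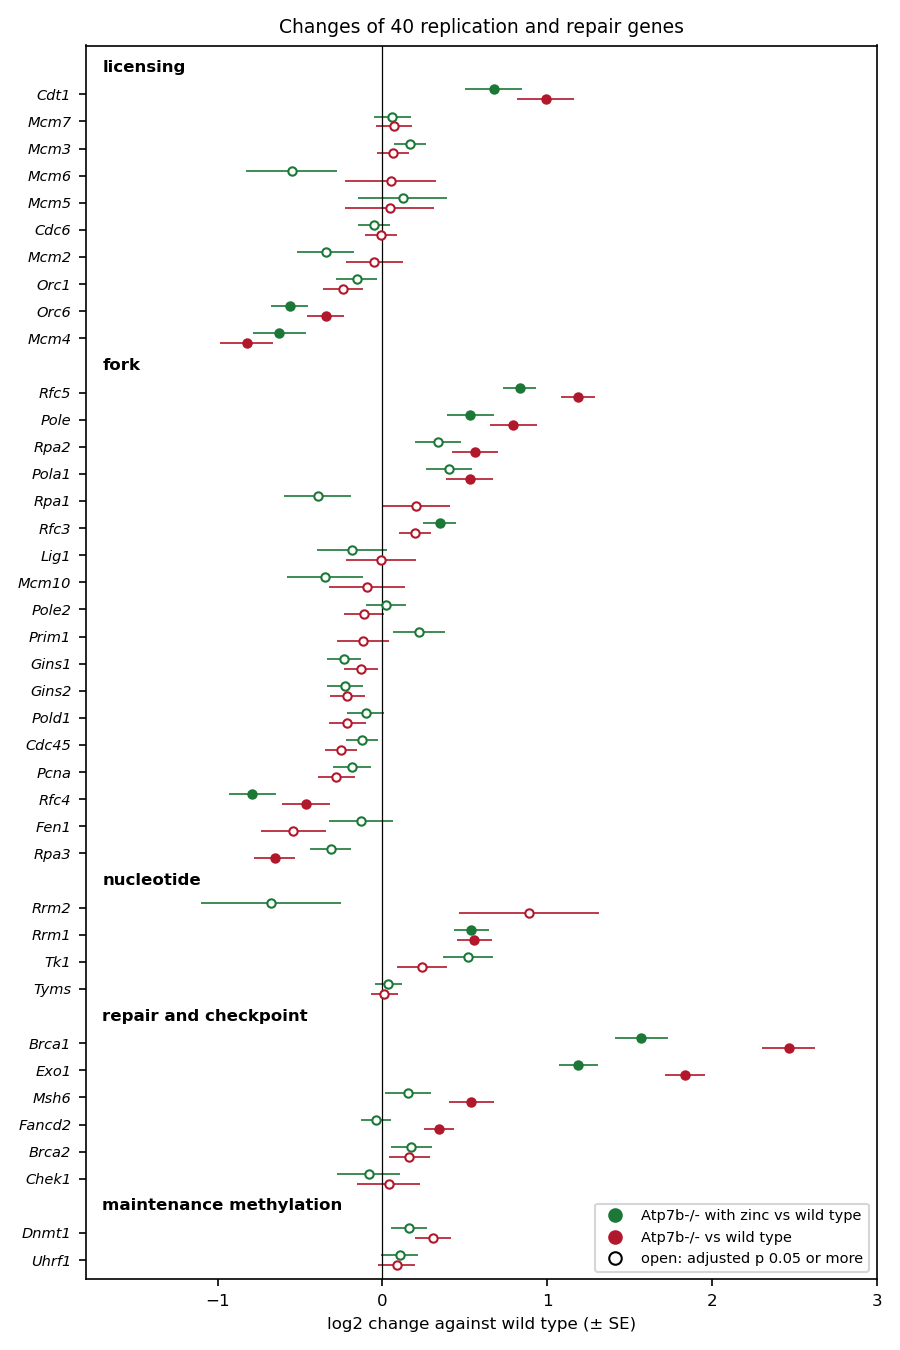
Log2 change ± SE of each of the 40 members against wild type (x axis), grouped by role, with zinc-treated Atp7b-/- above untreated Atp7b-/- for each gene and filled points at an adjusted p under 0.05. Brca1 and Exo1 lie farthest right, at 2.46 and 1.83 in untreated mutants, and Mcm4 lies farthest left in that comparison, at -0.82.

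Among the licensing genes, the helicase subunits and origin factors gave 1 rise (10%) and 2 falls (20%) in 10, with a median change of 0.02, in untreated mutants against wild type, where 14.3 percent of all genes rose and 10.3 percent fell. Without untreated replicate 1 there were 1 rise and 1 fall with a median change of -0.17, and without zinc-treated replicates 2 and 3 there were 1 rise and 2 falls. Promoter stretches of Mcm6, Mcm5 and Orc1, which carry letters of the E2F motif and did not pass the test, and of Pola1, which carries them and rose, are shown to set the binding letters beside the values. The sequences are from RefSeq on mouse build GRCm38.p6, 5′ to 3′ on the strand of the gene, with the motif letters in capitals.
Mcm6: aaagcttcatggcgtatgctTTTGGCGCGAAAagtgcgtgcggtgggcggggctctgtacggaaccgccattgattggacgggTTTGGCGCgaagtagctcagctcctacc
Mcm5: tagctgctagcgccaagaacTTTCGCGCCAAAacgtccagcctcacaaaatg
Orc1: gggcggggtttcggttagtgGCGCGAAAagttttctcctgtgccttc
Pola1: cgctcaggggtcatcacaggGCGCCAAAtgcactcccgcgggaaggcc

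The Mcm6 stretch is chr1:128359725-128359835 on the minus strand, the Mcm5 stretch chr8:75109336-75109387 on the plus strand, the Orc1 stretch chr4:108579407-108579453 on the plus strand and the Pola1 stretch chrX:93632266-93632313 on the minus strand. All lie upstream of the annotated start. The search took TTTCCCGC, TTTCGCGC, TTTGCCGC and TTTGGCGC on both strands, and a capital run of 12 bases holds 2 overlapping matches, 1 on each strand. In the window from 250 bases before to 50 after the start, 16 of the 34 members with a RefSeq promoter had such letters (47.1%), beside 2.6% of 27025 genes. They were in 7 of 9 licensing, 5 of 15 fork, 0 of 4 nucleotide, 2 of 4 repair and both methylation promoters. Of promoters of members that rose in untreated mutants 3 of 7 had them, of those that fell 0 of 3, and of those that did not pass the test 13 of 24. A match is a description of the letters and no evidence of binding.

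Cdt1, which brings the helicase to origins and is held in check outside G1, was the licensing gene that rose. It read 7.53, 7.48, 7.31 and 7.15 in zinc-treated mutants, 8.24, 7.67, 7.24 and 7.58 in untreated mutants and 6.88, 6.53, 6.82 and 6.55 in wild type livers. Every mutant array was above every wild type array, and the mutant groups overlapped. The change was 0.99 in untreated mutants (SE 0.17, adjusted p = 0.000986 by limma), a 1.99-fold difference, and 0.67 with zinc (adjusted p = 0.0288). The second of its 3 probe sets gave 0.44 in untreated mutants without passing the test, and the mean of its probe sets gave 0.51. The zinc call was lost with that mean, without zinc-treated replicate 1, 2 or 3, without both zinc-treated replicates 2 and 3, and without wild type replicate 2 or 4.

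Mcm4, a subunit of the helicase core, moved the other way. Its levels were 5.88, 6.42, 5.99 and 5.98 with zinc, 6.33, 5.87, 5.45 and 5.82 in untreated mutants and 6.57, 6.70, 6.64 and 6.85 in wild type livers. All 8 mutant arrays lay below all 4 wild type arrays. The change was -0.82 in untreated mutants (SE 0.16, adjusted p = 0.00219), and its second probe set gave -1.16. With zinc it was -0.63 against wild type (adjusted p = 0.0292), a call that was lost without zinc-treated replicate 1, 3 or 4 or wild type replicate 2, 3 or 4.

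Orc6, the smallest subunit of the origin recognition complex, read 6.14, 6.29, 5.85 and 6.15 with zinc, 6.33, 6.37, 6.27 and 6.35 in untreated mutants and 6.42, 6.88, 6.83 and 6.56 in wild type livers. Both mutant groups lay below wild type in every array. The change with zinc, -0.56 against wild type, had an adjusted p of 0.00759 and passed under all 22 alternatives. The untreated change of -0.34 had an adjusted p of 0.0409 and passed in 13 of 22. It was lost after centring arrays on their medians, without any 1 of the untreated arrays, without zinc-treated replicate 1 or 4 and without wild type replicate 2 or 3.

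The other helicase subunits had no called change in any comparison. Mcm2 changed by -0.05, Mcm3 by 0.07, Mcm5 by 0.04, Mcm6 by 0.05 and Mcm7 by 0.07 in untreated mutants against wild type, with SEs of 0.10 to 0.28. Mcm6, whose promoter stretch is printed above, shows the width of the spread: it read 5.40, 6.34, 5.43 and 6.12 with zinc, 7.14, 6.00, 6.35 and 6.20 in untreated mutants, and 6.63, 6.49, 6.62 and 5.76 in wild type livers. The groups overlapped in each comparison. Orc1, the ATPase subunit of the origin complex, changed by -0.24 (adjusted p = 0.17), and Cdc6, its loading partner, stayed dim at 3.16 to 3.66 in all 12 arrays.

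At the fork, 4 of 18 members rose (22.2%) and 2 fell (11.1%) in untreated mutants against wild type, with a median change of -0.11, beside 14.3 and 10.3 percent of all genes. Without untreated replicate 1, 4 rose and 4 fell with a median change of -0.22, and without zinc-treated replicates 2 and 3, 4 rose and 3 fell. The risers were Rfc5, a subunit of the clamp loader, Pole, the catalytic subunit of the leading strand polymerase, Pola1, that of the priming polymerase, and Rpa2, the middle subunit of the single-strand binding protein. The fallers were Rfc4 and Rpa3, subunits of the same clamp loader and the same binding protein. Pcna, the sliding clamp, did not rise.

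Rfc5 read 8.22, 8.28, 8.24 and 8.22 in zinc-treated mutants, 8.93, 8.41, 8.43 and 8.61 in untreated mutants and 7.44, 7.36, 7.36 and 7.48 in wild type livers. The groups did not overlap in any comparison. The change was 1.19 in untreated mutants (SE 0.10, adjusted p = 2.08e-06), a 2.28-fold difference, and 0.83 with zinc (adjusted p = 0.000183). Between the mutant groups it was -0.35 (adjusted p = 0.0554), and 6 of 22 alternatives passed the threshold there.

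Rfc4 went against Rfc5. It read 5.13, 5.78, 5.03 and 5.21 with zinc, 5.74, 5.70, 5.44 and 5.56 in untreated mutants and 6.05, 6.07, 6.27 and 5.90 in wild type livers, with every mutant array below every wild type array. Its change was -0.79 with zinc (SE 0.14, adjusted p = 0.00401) and -0.46 in untreated mutants (adjusted p = 0.0316). The untreated call was lost with the mean of its probe sets and without untreated replicate 3 or 4 or wild type replicate 1, 2 or 3. The third loader subunit on the list, Rfc3, changed by 0.20 in untreated mutants (adjusted p = 0.159) and by 0.35 with zinc (adjusted p = 0.0472). That zinc call passed in 9 of 22 alternatives. It was lost with a trended robust variance, in the fit of these 2 groups alone, without both zinc-treated replicates 2 and 3, and in 9 of the 12 fits that left out 1 array, all but those without untreated replicate 1 or wild type replicate 1 or 4.

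The subunits of Rpa were split in the same manner. Rpa3, the smallest, read 7.84, 7.51, 7.21 and 7.55 with zinc, 7.28, 7.15, 7.03 and 7.29 in untreated mutants and 7.69, 7.92, 7.74 and 8.02 in wild type livers, a change of -0.65 in untreated mutants (SE 0.12, adjusted p = 0.00175). Rpa2 read 7.01, 6.88, 6.49 and 6.58 with zinc, 7.25, 6.73, 6.93 and 6.97 in untreated mutants and 6.28, 6.61, 6.55 and 6.19 in wild type livers, a change of 0.56 in untreated mutants (adjusted p = 0.0109). For each gene the untreated arrays did not overlap wild type, and the zinc-treated arrays did. The second Rpa2 probe set gave 0.23 in untreated mutants against wild type without passing the test. Rpa1, the largest subunit, did not pass the test (0.21, adjusted p = 0.48), and its highest value, 10.67, was in untreated replicate 1, against 9.39 to 9.77 in the other untreated arrays.

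Among the polymerases, Pole read 5.36, 5.87, 5.47 and 5.57 with zinc, 6.17, 5.75, 5.78 and 5.62 in untreated mutants and 4.80, 5.33, 4.96 and 5.05 in wild type livers. Every mutant array exceeded every wild type array, with a change of 0.80 in untreated mutants (adjusted p = 0.00137) and 0.53 with zinc (adjusted p = 0.0379). The zinc call passed in 11 of 21 alternatives. Among the fits that left out arrays it was lost without both zinc-treated replicates 2 and 3, and without untreated replicate 2 or 3, zinc-treated replicate 2, 3 or 4, or wild type replicate 1, 3 or 4. Pola1, whose promoter stretch is printed above, changed by 0.53 in untreated mutants (adjusted p = 0.0154), and was not called without untreated replicate 4 or with the mean of its 2 probe sets, 0.19. Pold1, the lagging strand polymerase, had a change of -0.21 (adjusted p = 0.178), Prim1, the primase subunit, of -0.12 (adjusted p = 0.606), and Pole2, the second subunit of polymerase epsilon, was dim throughout.

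Pcna read 9.78, 9.96, 9.82 and 9.70 with zinc, 10.12, 9.53, 9.61 and 9.63 in untreated mutants and 9.97, 10.03, 9.96 and 10.06 in wild type livers. Untreated replicate 1 lay above all wild type arrays and the other 3 below them, so the change of -0.28 did not pass (adjusted p = 0.0891). Without that array it was -0.41 (adjusted p = 0.00243), but only 2 of 22 alternatives called Pcna. Gins2, a part of the active helicase, likewise passed without untreated replicate 1, at -0.32 (adjusted p = 0.0202). Only 2 of 21 alternatives called Gins2, and its second probe set gave 0.007 over all arrays. The remaining fork genes, Mcm10, Cdc45, Gins1, Fen1, which trims Okazaki fragments, and Lig1, which joins them, ranged from -0.54 to -0.01 in untreated mutants without passing. For Fen1 every untreated array lay below every wild type array, and 7 of 22 alternatives called the change. The 2 probe sets of Fen1 differed in sign, at -0.54 and 0.16, as did those of Cdc45, at -0.25 and 0.26. The probe sets of Mcm10 gave -0.09, 0.02 and 0.04.

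**Figure D2:**
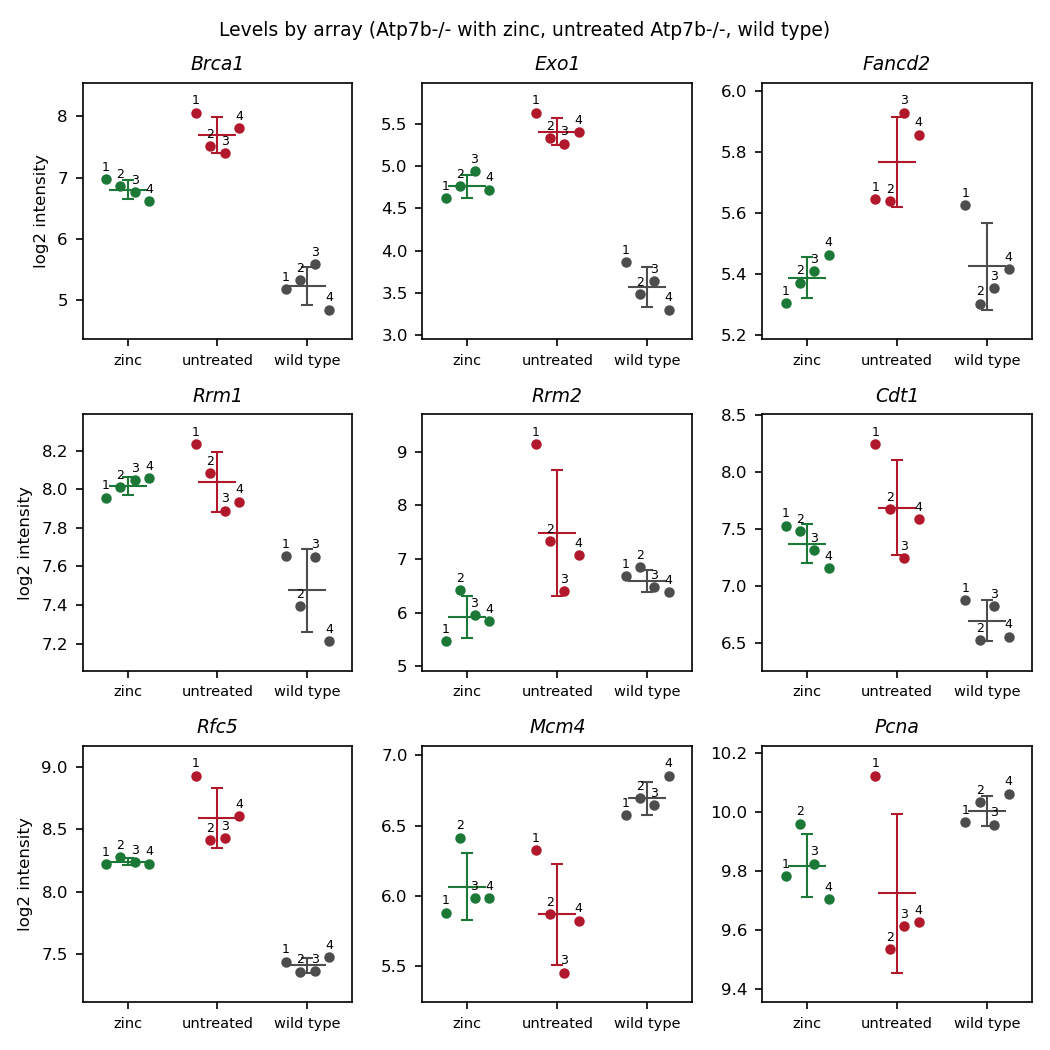
Log2 intensity (y axis) of 9 members in each array, with points numbered by replicate and bars for the group mean ± SD (n = 4), for zinc-treated Atp7b-/-, untreated Atp7b-/- and wild type livers. Brca1, Exo1 and Rfc5 separate the groups completely, while for Rrm2 and Pcna untreated replicate 1 lies far above the rest of its group.

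Of the 4 nucleotide genes, 1 rose (25%) and none fell in untreated mutants against wild type, with a median change of 0.40, beside 14.3 and 10.3 percent of all genes. The counts were the same without untreated replicate 1, with a median change of 0.28, and without zinc-treated replicates 2 and 3. Rrm1, the large subunit of ribonucleotide reductase, read 7.96, 8.01, 8.05 and 8.06 with zinc, 8.23, 8.08, 7.89 and 7.93 in untreated mutants and 7.65, 7.39, 7.65 and 7.21 in wild type livers. Every mutant array lay above every wild type array. The changes were 0.56 in untreated mutants (SE 0.11, adjusted p = 0.00198) and 0.54 with zinc (adjusted p = 0.00688), and its second bright probe set gave 0.51 and 0.85. The zinc call was lost (adjusted p = 0.0664) when both zinc-treated replicates 2 and 3 were left out.

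Rrm2, the small subunit whose level sets the enzyme's activity in S phase, had the widest spread of all members. It read 5.47, 6.42, 5.96 and 5.84 with zinc, 9.14, 7.34, 6.40 and 7.08 in untreated mutants and 6.69, 6.84, 6.47 and 6.38 in wild type livers. The lowest untreated array, 6.40, lay below the highest zinc-treated array, 6.42, and the untreated and wild type groups overlapped. The change in untreated mutants was 0.89 (SE 0.42, adjusted p = 0.141), or 0.34 without replicate 1. Against untreated mutants, zinc-treated livers were lower by 1.57 (adjusted p = 0.0434), or by 1.02 without untreated replicate 1 (adjusted p = 0.0232), and 7 of 22 alternatives passed. Its other 2 probe sets gave -1.23, which passed, and -0.79, which did not. The call was lost with quantile normalization, with a trended robust variance, in the fit of these 2 groups alone, without untreated replicate 2 or 4, without any 1 of the zinc-treated or wild type arrays, and without both zinc-treated replicates 2 and 3.

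Tk1, thymidine kinase of the salvage route, read 8.84, 8.22, 8.14 and 8.84 with zinc, 8.27, 8.07, 8.31 and 8.27 in untreated mutants and 8.07, 8.10, 7.83 and 7.96 in wild type livers. With zinc, replicates 2 and 3, those with acinar transcripts, were the low ones. The change of 0.52 with zinc against wild type missed the threshold (adjusted p = 0.0534). Without those arrays it was 0.85 (adjusted p = 0.000893), and 0.61 against untreated mutants (adjusted p = 0.00873). That fit kept only zinc-treated replicates 1 and 4, the high ones. The change against wild type passed in 7 of 22 alternatives, and that against untreated mutants in 1 of 22, this fit. Tyms, thymidylate synthase, was dim at 3.10 to 3.49 in all arrays.

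The promoters of Rrm1, Rrm2 and Brca1 held none of the E2F letters but had the CCAAT box, the binding letters of NF-Y, shown here in capitals because these are the leading nucleotide and repair members.
Rrm1: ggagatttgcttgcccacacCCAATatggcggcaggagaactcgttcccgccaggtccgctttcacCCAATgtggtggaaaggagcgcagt
Rrm2: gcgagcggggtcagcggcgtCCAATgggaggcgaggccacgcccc
Brca1: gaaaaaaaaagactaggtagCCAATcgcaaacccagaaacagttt

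These stretches are chr7:102441584-102441674 on the plus strand for Rrm1, chr12:24708184-24708228 on the plus strand for Rrm2 and chr11:101552017-101552061 on the minus strand for Brca1, on GRCm38.p6 from RefSeq. CCAAT on either strand was in 22 of 34 member promoters (64.7%), beside 41.1% of 27025 genes, and in 5 of 7 promoters of members that rose in untreated mutants, 2 of 3 of those that fell and 15 of 24 of those not called. TTTGAA, the letters of the cell cycle homology region, were in 4 of 34 (11.8%), beside 20.2%. None of the motifs searched is contained in another, though matches can overlap at their ends.

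The repair and checkpoint genes held the 2 largest changes of the list in untreated mutants against wild type. There 4 of 6 rose (66.7%) and none fell, with a median change of 0.44, beside 14.3 and 10.3 percent of all genes. The counts were the same without untreated replicate 1, with a median change of 0.41, and without zinc-treated replicates 2 and 3. Brca1, a ubiquitin ligase subunit that directs homologous recombination, read 6.98, 6.85, 6.76 and 6.62 with zinc, 8.06, 7.51, 7.40 and 7.80 in untreated mutants and 5.17, 5.32, 5.58 and 4.84 in wild type livers. Untreated arrays were highest, zinc-treated arrays intermediate and wild type arrays lowest, with no overlap. The change was 2.46 in untreated mutants (SE 0.16, adjusted p = 1.67e-07), a 5.52-fold difference, and 1.57 with zinc (adjusted p = 3.89e-05), a 2.97-fold difference. Zinc-treated livers were lower than untreated mutants by 0.89 (adjusted p = 0.00565). Of the 4 Brca1 probe sets, 3 rose in untreated mutants, by 1.19 to 2.46, and the fourth had -0.04, so the mean of all 4 changed by 1.23. All 3 calls passed in all 22 alternative fits.

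Exo1, an exonuclease of mismatch repair and of break resection, followed the same order. It read 4.62, 4.76, 4.94 and 4.72 with zinc, 5.63, 5.33, 5.26 and 5.40 in untreated mutants and 3.86, 3.48, 3.64 and 3.30 in wild type livers. No group overlapped another. Because wild type was dim, the change of 1.83 in untreated mutants (SE 0.12, adjusted p = 1.63e-07) is a lower bound, at least 3.57-fold. Zinc-treated livers were also dim, though above wild type, and were lower than untreated mutants by 0.64 (adjusted p = 0.00671). Between the dim zinc-treated and wild type groups the difference was 1.19 (adjusted p = 3.18e-05), for which no fold is given. The other 2 probe sets of Exo1 gave 0.27, which passed, and 0.00 in untreated mutants against wild type. For zinc-treated against untreated mutants they gave -0.28 and 0.07, and for zinc-treated mutants against wild type -0.004 and 0.07. None of these passed, so the intermediate place of the zinc-treated group rests on 1 of 3 probe sets.

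Fancd2, the central protein of interstrand crosslink repair, read 5.30, 5.37, 5.41 and 5.46 with zinc, 5.65, 5.64, 5.93 and 5.86 in untreated mutants and 5.63, 5.30, 5.35 and 5.42 in wild type livers. Untreated arrays lay above both other groups, which overlapped. The change was 0.34 in untreated mutants (SE 0.09, adjusted p = 0.0158) and -0.38 for zinc-treated against untreated mutants (adjusted p = 0.0261). The first call was lost without untreated replicate 4. The second was lost without untreated replicate 3 or 4 and without zinc-treated replicate 1, 2 or 3, or both 2 and 3. Both were lost with the mean of its 4 probe sets.

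Msh6, which recognises mismatches in new DNA, read 6.58, 6.92, 6.75 and 6.39 with zinc, 7.34, 7.08, 6.75 and 7.01 in untreated mutants and 6.54, 6.46, 6.30 and 6.73 in wild type livers. The untreated change was 0.54 (adjusted p = 0.0125), with every array above wild type. Brca2, which acts in homologous recombination, changed by 0.16 (adjusted p = 0.36), and Chek1, the kinase that stalls the cycle when forks stop, by 0.04 (adjusted p = 0.903). The methylation genes Uhrf1 and Dnmt1, which copy methyl marks onto new strands, changed by 0.09 and 0.31 (adjusted p = 0.595 and 0.0578). A second Dnmt1 probe set passed at 0.50.

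Mki67, a marker of cycling cells, read 5.21, 5.61, 5.53 and 5.09 with zinc, 6.29, 5.19, 4.92 and 5.08 in untreated mutants and 5.55, 5.74, 5.82 and 4.996 in wild type livers. Only untreated replicate 1 lay above wild type, and the change was -0.15 in untreated mutants (adjusted p = 0.695). That array's mean over the members, relative to wild type, was 0.32 for licensing, 0.27 for fork, 0.90 for nucleotide and 1.12 for repair genes. In the other 3 untreated arrays these means ran from -0.27 to -0.07 for licensing and from -0.10 to -0.02 for fork genes. They ran from 0.14 to 0.36 for nucleotide and from 0.76 to 0.90 for repair genes. Brca1 and Exo1 weigh most in the repair mean, with group changes of 2.46 and 1.83, against 0.04 to 0.54 for the other repair genes. In 11 members, Mcm2, Mcm5, Mcm6, Mcm7, Cdc6, Pcna, Rfc3, Prim1, Lig1, Rpa1 and Uhrf1, untreated replicate 1 was above every wild type array and the other 3 were not. The share of all genes with this pattern was not counted, so whether it is particular to the members is not known.

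**Figure D3:**
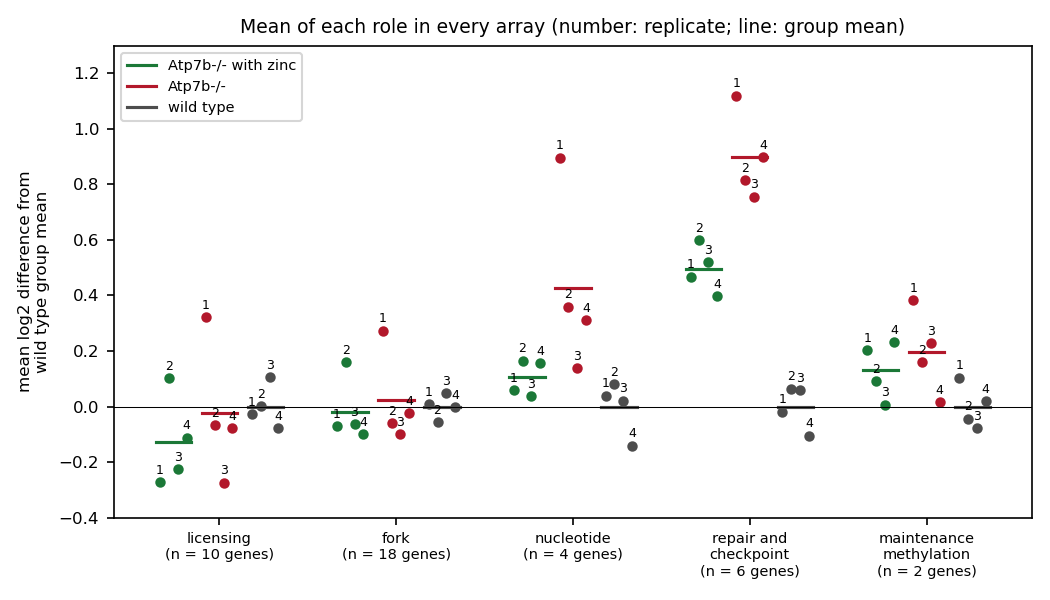
Mean log2 difference from the wild type group mean (y axis) over the members of each role, for every array of zinc-treated Atp7b-/-, untreated Atp7b-/- and wild type livers, with points numbered by replicate and lines at group means. Repair and checkpoint means are highest in untreated mutants, from 0.76 to 1.12, while for licensing genes untreated replicate 1 alone lies above every wild type array, and for fork genes it and zinc-treated replicate 2 do.

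Set against untreated mutants, zinc-treated livers had no member that rose, beside 1.7 percent of all genes, and 4 that fell, Rrm2, Brca1, Fancd2 and Exo1, 10% of members beside 4.84 percent of all genes. The licensing and fork genes gave no call in 28, and the repair genes gave 3 falls in 6 (50%), with a median change of -0.38. The repair genes gave 3 falls without untreated replicate 1 and 2 without zinc-treated replicates 2 and 3, and the licensing and fork genes gave none in either fit. The members' median was -0.07, against 0.01 for all genes. In 4 members, Rfc5, Brca1, Fancd2 and Exo1, every zinc-treated array lay below every untreated array, beside 9.39 percent of all genes. Brca1 and Exo1 were called in all of these alternative fits, and 2 calls were left without untreated replicate 4 or without zinc-treated replicate 1. Without untreated replicate 1 there were 4 falls with a median change of 0.03, and without zinc-treated replicates 2 and 3 there were 2 falls (Brca1, Exo1) and 1 rise (Tk1). Of all genes, 1.28 percent rose and 4 percent fell in the first of these fits, and 0.863 and 2.51 percent in the second.

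Against wild type, zinc-treated mutants had 10 called members. The 7 that rose were Cdt1, Rfc3, Rfc5, Pole, Rrm1, Brca1 and Exo1, 17.5% of members beside 4.89 percent of all genes. The 3 that fell were Mcm4, Orc6 and Rfc4, 7.5% beside 2.73 percent of all genes. The median change was -0.01 for members and -0.02 for all genes. In 9 members every zinc-treated array was above every wild type array, beside 7.88 percent of all genes. Without zinc-treated replicates 2 and 3, 4 rose and 3 fell, beside 2.87 and 0.967 percent of all genes. Without untreated replicate 1, 7 rose and 4 fell, beside 5.61 and 3.4 percent. Of the members called against wild type, 6 rose and 3 fell in both mutant groups, which share the wild type arrays. The share of all genes called in both groups was not counted, so these counts cannot be read as a trait of the members. Pola1, Rpa2, Rpa3, Fancd2 and Msh6 passed in untreated mutants and not with zinc, and the test of zinc-treated against untreated mutants passed for Fancd2 of these. No member passed in opposite directions against wild type.

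A further 54 genes of the same pathways, listed as companions of the members, also moved in both directions, and they too were listed with earlier results known. In untreated mutants against wild type 21 rose (38.9%) and 8 fell (14.8%), with a median change of 0.10, beside 14.3 and 10.3 percent of all genes. Without untreated replicate 1, 21 rose and 5 fell, beside 13.6 and 8.92 percent of all genes. Without zinc-treated replicates 2 and 3, 20 rose and 4 fell, beside 13.9 and 9.62 percent. Dbf4, the activating subunit of the kinase that fires origins, read 8.82, 8.42, 8.45 and 8.56 with zinc, 8.46, 8.92, 8.94 and 8.63 in untreated mutants and 6.17, 6.64, 6.05 and 6.31 in wild type livers. The mutant groups overlapped and both lay far above wild type, by 2.27 with zinc (adjusted p = 3.21e-07) and 2.44 in untreated mutants (adjusted p = 5.34e-08). Mcm8, a helicase of homologous recombination, was dim in wild type and rose by at least 2.69 in untreated mutants (adjusted p = 7.79e-08) and by at least 2.03 with zinc (adjusted p = 3.27e-06).

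Repair companions rose in 8 of 16 cases (50%) in untreated mutants against wild type and fell in 2 (12.5%), beside the same 14.3 and 10.3 percent. The rise was not particular to repair: licensing companions rose in 5 of 10 cases (50%) and nucleotide companions in 5 of 9 (55.6%). Fork companions rose in 3 of 19 (15.8%), and each of these roles had 2 falls. Atr, the kinase upstream of Chek1, read 8.15, 8.27, 8.17 and 8.04 with zinc, 8.59, 8.56, 8.78 and 8.54 in untreated mutants and 7.37, 7.48, 7.31 and 7.30 in wild type livers. The order of the groups was that of Brca1, with no overlap. It rose by 1.25 in untreated mutants (adjusted p = 1.18e-07) and fell by 0.46 in zinc-treated against untreated mutants (adjusted p = 0.00384). Polk, a polymerase that copies past lesions, rose by 1.67, Rad18, a ligase that recruits such polymerases, by 1.40, and Blm, a helicase that dissolves recombination intermediates, by 1.04 in untreated mutants (adjusted p = 8.77e-05, 2.71e-05 and 2.99e-05). The largest fall was in Pold2, the second subunit of polymerase delta, at -1.11 (adjusted p = 3.52e-05), and the primase subunit Prim2 rose by 1.20 (adjusted p = 1.35e-05).

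Zinc-treated against untreated mutants, 3 companions rose (5.56%) and 7 fell (13%), beside 1.7 and 4.84 percent of all genes. Without untreated replicate 1, 1 rose and 7 fell, beside 1.28 and 4 percent of all genes. Without zinc-treated replicates 2 and 3 none rose and 3 fell, beside 0.863 and 2.51 percent. Fanci, the partner of Fancd2, was lower by 0.84 (adjusted p = 0.00422), Polk by 0.87 (adjusted p = 0.0285), Rad18 by 0.68 (adjusted p = 0.0215), Mcm8 by 0.66 (adjusted p = 0.0304) and the nucleoside kinase Dck by 0.54 (adjusted p = 0.0117). Polk read 7.23, 8.21, 7.92 and 6.96 with zinc and 8.59, 8.21, 8.46 and 8.54 in untreated mutants, so these groups overlapped. Its high zinc-treated arrays were replicates 2 and 3, those with acinar transcripts. Fanci read 5.52, 6.29, 5.78 and 5.93 with zinc, 6.93, 6.43, 6.74 and 6.77 in untreated mutants and 5.73, 5.77, 5.80 and 5.56 in wild type livers, so untreated mutants lay above both other groups, as for Fancd2. Atm, the kinase of double-strand breaks, was higher by 0.64 (adjusted p = 0.0301) and Tipin, a fork protection protein, by 0.33 (adjusted p = 0.0386).

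Against wild type, 11 companions rose (20.4%) and 3 fell (5.56%) with zinc, beside 4.89 and 2.73 percent of all genes. Without zinc-treated replicates 2 and 3, 8 rose and 1 fell, beside 2.87 and 0.967 percent of all genes. Without untreated replicate 1, 11 rose and 3 fell, beside 5.61 and 3.4 percent. Beside Dbf4, Mcm8 and Atr, those with the smallest adjusted p were Prim2 at 0.90, Blm at 0.85, Gmnn, the protein that restrains Cdt1, at 0.70, Xrcc5, a Ku subunit of end joining, at 0.56, and Dctpp1, which hydrolyses deoxycytidine triphosphate, at -0.48. Gmnn and its target Cdt1 both passed in both mutant groups, with 0.66 and 0.99 in untreated mutants.

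**Figure D4:**
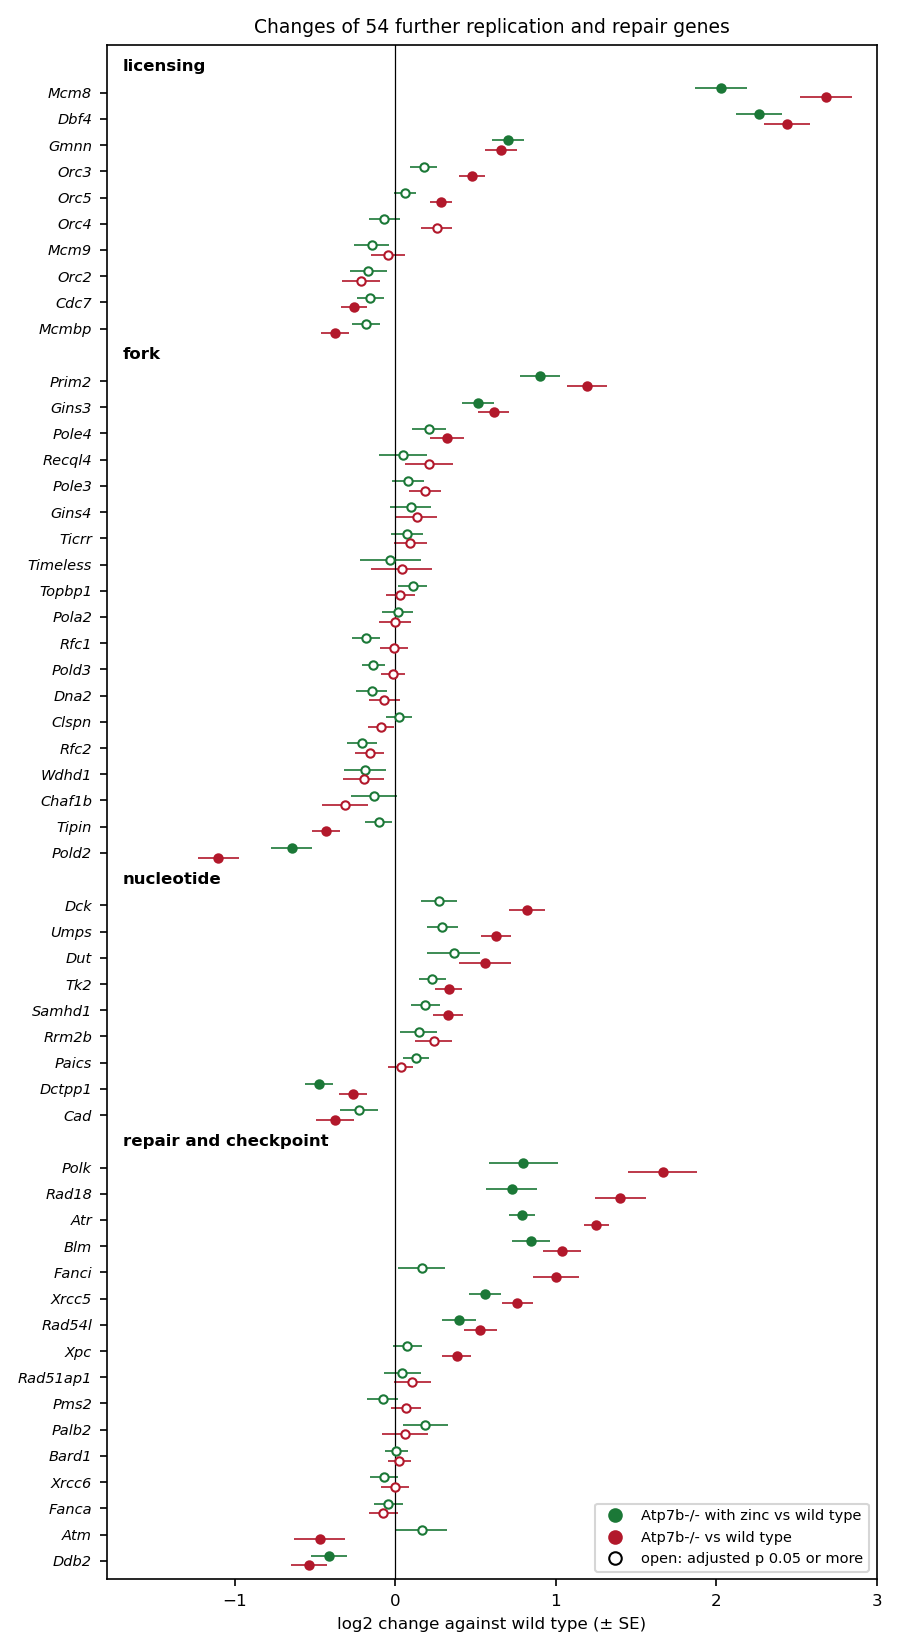
Log2 change ± SE of each of the 54 companion genes against wild type (x axis), grouped by role, with zinc-treated Atp7b-/- above untreated Atp7b-/- for each gene and filled points at an adjusted p under 0.05. Mcm8 and Dbf4 lie farthest right, at 2.69 and 2.44 in untreated mutants, and Pold2 lies farthest left, at -1.11.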

How the data were processed

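Liver RNA of 12 mouse samples was measured on Affymetrix GeneChip Mouse 430 2.0 arrays. The deposited values are log2 intensities, which the authors had put on a common scale; the normalization method is given by no source used here. They ran from 2.22 to 15.2, with array medians of 5.63 to 5.71, and were used without further scaling. Of 45101 probe sets, the 64 controls, 932 with several gene symbols and 9160 with none were left out, which gave 18193 genes, each read from its probe set with the highest mean. The number of arrays limits the precision. Groups came from the labels. The test was limma 3.58.1 (R 4.3.3): a single model of the 3 group means fitted to all arrays, with Benjamini-Hochberg adjustment over all genes. The fit was tested on simulated data. Members and lists were chosen with earlier results of these data known. Named were all 40 members, Atp7b, Mki67, marker lists, and per comparison up to 8 called companions with the smallest adjusted p. Some further genes of these pathways are not reported here. Promoters came from RefSeq (GRCm38.p6), matched by symbol. Alternatives were quantile normalization, centring on array medians, the mean of all probe sets, no _x or _s probe sets and a trended robust variance. Another left out genes whose highest group mean lay below the median level of all genes, a stricter cut than that for dim. The rest were array weights, fits of 2 groups, the replicate block, a minimum change of 1 log2 unit, the acinar arrays left out and each array left out. Fits of every probe set, leave-one-out values by role, and counts of companions without the arrays that stood apart were chosen after seeing the data.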

Additional observations from a re-analysis of the deposited data

Results flagged for a closer look

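Of 138 sets of 4 arrays examined among the members and their means by role, 7 held 1 array far from the other 3, and chance gives about 1 in 20. Pcna in untreated Atp7b-/- replicate 1 was 10.1, against 9.53 to 9.63 in the rest of its group, and Pole2, dim throughout, was 4.61 in that array, against 4.16 to 4.23. Tk1 in untreated replicate 2 was 8.07, against 8.27 to 8.31. In wild type, Mcm3 was 5.66 in replicate 1, against 6.04 to 6.11, and Mcm6 was 5.76 in replicate 4, against 6.49 to 6.63. Zinc-treated replicate 2, the array with the most acinar signal, had a mean over all 40 members of 0.208 relative to wild type, against -0.01 to 0.01 in the other zinc-treated arrays, and a mean over the fork members of 0.159, against -0.10 to -0.06.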

How the results depend on the processing

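Over 23 alternatives no called change of a member turned its direction. A minimum change of 1 log2 unit left 2 members in untreated mutants against wild type, 0 in zinc-treated against untreated mutants and 0 in zinc-treated mutants against wild type. Leaving out each array gave 2 to 5 changed members in zinc-treated against untreated mutants, with median changes from -0.17 without zinc-treated replicate 2 to 0.031 without untreated replicate 1. The fit of brighter genes kept those whose highest group mean reached the median level of all genes, a stricter cut than that for dim. In it the median change of zinc-treated mutants against wild type was 0.11 over the members kept. With a replicate block the counts were 16, 3 and 9 in the same order, against 14, 4 and 10 without it. The block lost Rrm2 (zinc-treated against untreated mutants) and Rfc3 and Pole (zinc-treated mutants against wild type), and gained Fen1 and Dnmt1 (untreated mutants against wild type) and Tk1 (zinc-treated mutants against wild type). The numbers share no stated source, pair correlations ran from -0.13 to 0.24, and 3 of 12 arrays correlated best with their own number. Of genes called in untreated mutants against wild type, 58.2% were higher as deposited, 49.6% after quantile normalization and 68.1% after centring, so background shares depend on the scaling. In zinc-treated against untreated mutants, these were 26%, 40.1% and 19.7%. Causes were not tested. Dim probe sets limit Cdc6, Pole2, Tyms and Exo1.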
